A study of Mus musculus with 36 samples.

Results

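The 4 Hox clusters of the mouse were described in crypts of the small intestine as the peaks of 8 histone marks that fell inside 4 windows of the mm9 genome build. The windows were 52.1 to 52.22 Mb of chromosome 6 for Hoxa, 96.04 to 96.24 Mb of chromosome 11 for Hoxb, 102.74 to 102.88 Mb of chromosome 15 for Hoxc and 74.49 to 74.61 Mb of chromosome 2 for Hoxd. They spanned 580 kb in all and stand for 38 genes. Of the 590372 peaks in 32 lists, 423 touched a window: 95 at Hoxa, 143 at Hoxb, 105 at Hoxc and 80 at Hoxd.

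Chromatin immunoprecipitation and sequencing was run on crypts of fed mice, with free access to food for 24 h, and of fasted mice, kept without food but with water for the same 24 h. Mice were labelled wildtype, 6 to 12 weeks old and of both sexes, and the protocol names an Lgr5EGFP-IRES-CreERT2 strain beside C57BL/6J. Each replicate was a pool of the crypts of 4 animals, so a list describes a pool and not 1 mouse. There were 2 fed pools, 1 and 4, and 2 fasted pools, 2 and 5, and each gave a list for H3K27me3, H3K4me3, H3K4me1, H3K27ac, H3K79me2, H3K9me3 and the β-hydroxybutyryl marks H3K9bhb and H4K12bhb. All groups shared 100 nM trichostatin A, an inhibitor of histone deacetylases, in the buffers of crypt isolation. Crypts hold stem, progenitor, Paneth and other cells, so a mark may come from only some of them, and the tissue label could not be checked against marker genes with these lists.

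Hox genes encode homeodomain transcription factors that set position along the body axis, and their order in a cluster follows the order of the body regions in which they act. Low-numbered genes act towards the head end and genes of the highest numbers act in the hindgut, limbs and genital tract. Polycomb repressive complex 2 places H3K27me3 over silent Hox genes, and Trithorax-group enzymes place H3K4me3 at their promoters when they are active or poised. Acetylation and β-hydroxybutyrylation of histone lysines lie mostly at active promoters and enhancers. In the RefSeq annotation of the GRCm38.p6 build, gene starts along rising coordinates run from Hoxa2 to Hoxa13, from Hoxb13 to Hoxb1, from Hoxc13 to Hoxc4 and from Hoxd13 to Hoxd1. This order was used only to say which end of a window is which, and no gene was placed on a peak, because the peaks are on mm9.

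The promoter sequence that Polycomb marks in mammals is often rich in the dinucleotide CG, and the Hox promoters differ in this. The promoter table used here, from RefSeq on GRCm38.p6, held 24 promoters of 22 of the 38 genes. The 250 bases before the start of each held a median of 12.5 CG, from 2 to 35, against a median of 6 over all 32851 promoters of the table. At least 15 CG were found in 9 of the 24 (37.5%) and in 27.3% of all promoters. The motif CG reads the same on both strands. Below are the promoters with the most CG in each cluster among those of the table, 5′ to 3′ on the gene's strand, with CG in capitals and GRCm38.p6 positions that cannot be laid on the mm9 peaks. They held 35 (Hoxa13), 14 (Hoxb4), 8 (Hoxc4) and 31 CG (Hoxd13). The table held 3 promoters of Hoxb and 1 of Hoxc, and CG did not follow the gene order: Hoxa5 had 28 and Hoxd1 24, against 3 for Hoxa9.
Hoxa13, chr6:52260881-52261130, minus strand: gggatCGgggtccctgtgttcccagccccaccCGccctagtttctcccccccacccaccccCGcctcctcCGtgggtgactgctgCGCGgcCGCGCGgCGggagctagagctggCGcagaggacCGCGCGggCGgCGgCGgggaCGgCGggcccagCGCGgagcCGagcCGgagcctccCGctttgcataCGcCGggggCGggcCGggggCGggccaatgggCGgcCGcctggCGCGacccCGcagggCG
Hoxb4, chr11:96318017-96318266, plus strand: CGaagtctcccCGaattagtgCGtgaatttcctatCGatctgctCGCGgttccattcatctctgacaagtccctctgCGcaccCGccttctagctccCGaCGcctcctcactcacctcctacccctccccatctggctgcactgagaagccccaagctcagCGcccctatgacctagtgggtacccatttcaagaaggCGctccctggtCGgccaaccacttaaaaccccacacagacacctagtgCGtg
Hoxc4, chr15:103034145-103034394, plus strand: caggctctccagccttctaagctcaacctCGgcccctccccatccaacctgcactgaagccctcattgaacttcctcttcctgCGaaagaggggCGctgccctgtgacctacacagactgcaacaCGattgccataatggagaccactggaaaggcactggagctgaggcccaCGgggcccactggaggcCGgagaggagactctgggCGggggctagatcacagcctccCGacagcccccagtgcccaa
Hoxd13, chr2:74667975-74668224, plus strand: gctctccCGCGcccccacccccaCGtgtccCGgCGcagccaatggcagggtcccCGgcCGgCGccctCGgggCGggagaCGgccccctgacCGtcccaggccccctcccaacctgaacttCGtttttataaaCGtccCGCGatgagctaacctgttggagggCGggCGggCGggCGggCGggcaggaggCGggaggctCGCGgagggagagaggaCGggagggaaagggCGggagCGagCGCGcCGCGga

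The clusters also carry microRNA genes, which lie among the Hox genes in the GRCm38.p6 annotation. They are shown because copies in different clusters share a seed, the bases that pair with target messages, given here in capitals (bases 2 to 8). Mir196b of Hoxa, Mir196a-1 of Hoxb and Mir196a-2 of Hoxc share 1 seed, and several Hox messages are known targets of miR-196. Mir10a, next to Hoxb4, and Mir10b, next to Hoxd4, share another.
mmu-miR-196b-5p: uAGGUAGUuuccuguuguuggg
mmu-miR-196a-5p: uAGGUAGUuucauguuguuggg
mmu-miR-10a-5p: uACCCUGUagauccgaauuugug
mmu-miR-10b-5p: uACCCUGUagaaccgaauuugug

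The lists differed in size before the Hox windows were considered, and this stands beside every result. H3K27me3 lists held 6914 and 3760 peaks in fed pools 1 and 4 against 18259 and 20887 in fasted pools 2 and 5. H3K4me3 lists held 3430 and 295 peaks in the fed pools against 15079 and 18429 in the fasted pools. Fed pool 1 had only 309 H3K4me1 and 571 H3K79me2 peaks. Every peak carried the authors' score, minus 10 times the log10 of p from their caller, of at least 50. Read depth is unknown from these lists, so a place with no peak is a place where none was called and is not shown to lack the mark. File names carry the number 10 for fed pool 1 and fasted pool 2 and 11 for fed pool 4 and fasted pool 5, and differences are also given within each number.

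In fed crypts H3K27me3 lay over all 4 clusters, and it was the widest mark there. It covered 46.3% of the 4 windows in fed pool 1 and 37.9% in fed pool 4, which was 145 and 235 times its share of the whole genome. In fasted pool 2 it covered 51.5% and in fasted pool 5 15.7%, or 38.4 and 7.97 times its share of the genome. The 2 fasted pools thus fell on either side of the fed pools. The mean was 42.1% ± 5.94 (SD, n = 2) fed and 33.6% ± 25.3 (SD, n = 2) fasted, a difference of -8.51 percentage points (two-sided exact permutation p = 1.0). With 2 pools against 2 the smallest p that this test can give is 0.33. The difference was 5.16 points within number 10 and -22.2 within number 11, so its sign differed between the pairs, and without fasted pool 5 it was 9.36.

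Hoxa had the widest H3K27me3 cover of the 4 clusters in both fed pools and the narrowest in fasted pool 2, and in fasted pool 5 it had none. H3K27me3 covered 62.4% and 49.1% of the Hoxa window in fed pools 1 and 4, 25.6% in fasted pool 2 and 0% in fasted pool 5. All fed values lay above all fasted values, with a difference of means of -43.0 points (fed 55.8% ± 9.43, fasted 12.8% ± 18.1, SD, n = 2 each; exact permutation p = 0.33, adjusted over 8 marks 1.0). The difference was -36.9 within number 10 and -49.1 within number 11. The cluster holds the genes for Hoxa2, which patterns the hindbrain and the neural crest, through Hoxa13.

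Hoxb was the cluster with the narrowest spread between pools. H3K27me3 covered 36.9% and 32.6% of its window in fed pools 1 and 4 and 43.5% and 39.3% in fasted pools 2 and 5. Both fasted values lay above both fed values, with a difference of 6.67 points (fed 34.7% ± 3.02, fasted 41.4% ± 2.94, SD, n = 2 each; exact permutation p = 0.33, adjusted over 8 marks 1.0). Within numbers 10 and 11 it was 6.62 and 6.73. In fasted pool 5, 1 peak that crossed the lower edge reached 40.07 kb into the window, out of 78629 bp covered. The separation of fed and fasted values at Hoxb thus depended on this 1 call. A similar share hid different places, as the values along the window show further on.

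Hoxc and Hoxd split the fasted pools. H3K27me3 covered 52.4% and 43.5% of the Hoxc window in fed mice, and 73.9% and 0% in fasted pools 2 and 5. At Hoxd it covered 38.8% and 29.0% in fed mice, and 64.5% and 10.5% in fasted pools 2 and 5. In both windows fasted pool 2 was the highest and fasted pool 5 the lowest of the 4 pools, so the fed and fasted values overlapped.

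**Figure D1:**
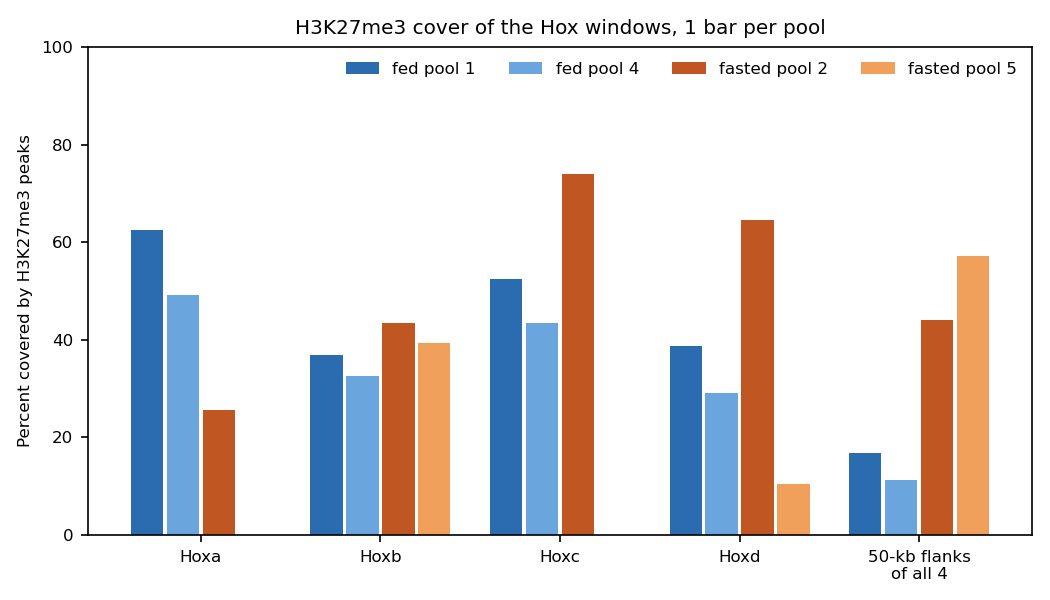
Percent of each Hox window covered by H3K27me3 peaks (vertical axis), with 1 bar for each pool and no error bars, and the same over the 50-kb flanks of all 4 windows. Fasted pool 5 has no bar at Hoxa and Hoxc, whereas its flanks are covered to 57.2%.

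The sides of the windows did not follow the windows. Over 50 kb on each side of the 4 windows, H3K27me3 covered 16.8% and 11.2% in fed pools 1 and 4 and 44.1% and 57.2% in fasted pools 2 and 5. In the fed pools cover fell from the clusters to their flanks, and in fasted pool 5 it was higher in the flanks. Fasted pool 2 went with the fed pools, from 51.5% in the windows to 44.1% in the flanks. At Hoxa alone its flanks were covered more than its window, at 56.5% against 25.6%. Beside Hoxc, fasted pool 5 had 72.0% of the flanks covered and none of the window.

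Along the Hoxa window, the middle was covered in the fed pools and free of peaks in both fasted pools. From 52.14 to 52.16 Mb the cover was 70.8% and 50.5% in fed pools 1 and 4, and from 52.16 to 52.18 Mb it was 77.3% and 58.4%. From 52.18 to 52.2 Mb it was 61.3% and 62.7%. In these 3 segments of 20 kb neither fasted pool had a peak. At the Hoxa2 end, from 52.1 to 52.12 Mb, fasted pool 2 had 98.3% covered against 69.0% and 23.6% in the fed pools. The longest merged H3K27me3 region of the cluster, 20567 bp at chr6:52101411-52121977, lay there. Its whole extent was 1 peak of fasted pool 2, with a score of 94.14, and shorter peaks of fed pools 1 and 4 lay inside it.

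In the Hoxb window the fed and fasted pools favoured different segments. From 96.12 to 96.18 Mb both fasted pools had no peak, whereas the cover by segment was 57.2%, 66.7% and 45.1% in fed pool 1 and 46.5%, 54.9% and 27.7% in fed pool 4. From 96.08 to 96.1 Mb, cover was 57.8% and 61.8% in the fasted pools and 12.9% and 0% in the fed pools. The Hoxb13 end, from 96.04 to 96.06 Mb, was fully covered in fasted pool 5, free of peaks in fasted pool 2 and covered to 60.5% and 63.0% in the fed pools. That cover in fasted pool 5 was a single peak of 60923 bp with a score of 267.57, at chr11:96019148-96080070, which began below the window and was the longest peak of its list. At the Hoxb1 end, from 96.22 to 96.24 Mb, fasted pools 2 and 5 had 83.6% and 94.6% covered and fed pools 1 and 4 had 15.7% and 24.3%. Hoxb1 acts in the hindbrain and Hoxb13 in the tail end of the body and the prostate.

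In the Hoxc window fasted pool 2 had nearly unbroken cover at the Hoxc13 end. From 102.74 to 102.8 Mb its 3 segments were covered to 99.7%, 100% and 100%, against 32.2% to 66.4% for fed pool 1 and 41.7% to 67.3% for fed pool 4. Its longest peak there, 36796 bp at chr15:102754854-102791649, was the longest of the whole list. From 102.82 to 102.84 Mb fasted pool 2 had no peak, and fed pools 1 and 4 were covered to 56.7% and 30.8%. Hoxc13 acts in hair follicles and nails, and Hoxc4 at the other end acts in the neck and thorax.

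At Hoxd the fed pools had their highest cover towards the Hoxd13 end and fasted pool 2 towards the Hoxd1 end. From 74.51 to 74.53 Mb, fed pools 1 and 4 had 50.4% and 57.6% covered and neither fasted pool had a peak. From 74.55 to 74.59 Mb, fasted pool 2 had 95.3% and 98.7% of its segments covered, fed pool 1 24.3% and 33.1% and fed pool 4 5.31% and 24.7%. The only H3K27me3 peak of fasted pool 5 in this window was 13009 bp long, at chr2:74597441-74610449, with a score of 1625.09. The longest merged region of the cluster, 28690 bp at chr2:74565624-74594313, took in fed pools 1 and 4 and fasted pool 2. Its extent came from fasted pool 2 peaks of 13712 and 14708 bp, joined by a short peak of fed pool 1.

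**Figure D2:**
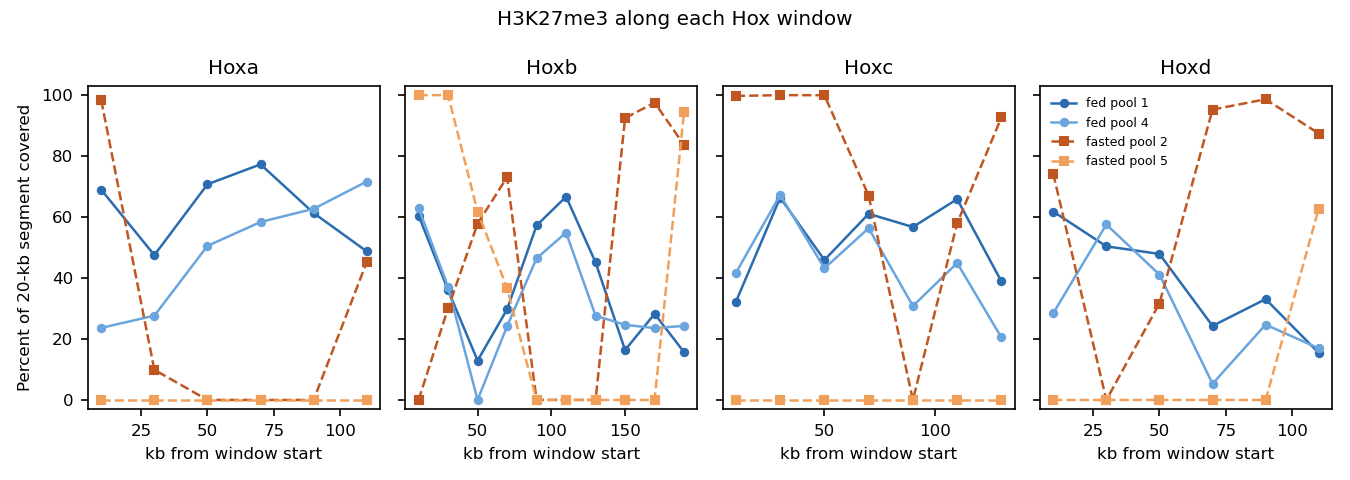
Percent of each 20-kb segment covered by H3K27me3 peaks (vertical axis) against the distance of its middle from the window start in kb, with circles and full lines for fed pools and squares and broken lines for fasted pools. Both fed pools stay above 50% between 40 and 100 kb at Hoxa, where both fasted pools are at 0.

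Most of every cluster was in at least 1 H3K27me3 list. Cover in at least 1 list was 85.2% at Hoxa, 86.2% at Hoxb, 93.5% at Hoxc and 91.5% at Hoxd. The longest stretch in no list was 5009 bp at Hoxa, chr6:52121978-52126986, and 3185 bp at Hoxb, chr11:96162437-96165621. It was 1813 bp at Hoxc, chr15:102826889-102828701, and 1673 bp at Hoxd, chr2:74534841-74536513. The stretch at Hoxa began where the long region at the Hoxa2 end stopped.

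The H3K27me3 peaks in the windows also differed in form between pools. Fed pools 1 and 4 had 169 and 143 peaks there, with a median length of 1392 and 1286 bp and none longer than 6099 bp. Fasted pool 2 had 51 with a median of 3443 bp and fasted pool 5 had 19 with a median of 1554 bp. Fed cover was thus made of many short peaks and fasted cover of few peaks, some very long. In their whole lists the median length was 1039 and 987 bp in the fed pools and 1259 and 1381 bp in the fasted pools. Of the 100 highest-scoring H3K27me3 peaks, 8 in fed pool 1 and 19 in fed pool 4 lay in the windows, which held 2.44% and 3.80% of the peaks of those lists. In fasted pools 2 and 5 the counts were 4 and 0, beside 0.279% and 0.091% of the peaks. The highest-scoring H3K27me3 peak of the whole fed pool 4 list, 649.15, was a Hox peak.

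**Figure D3:**
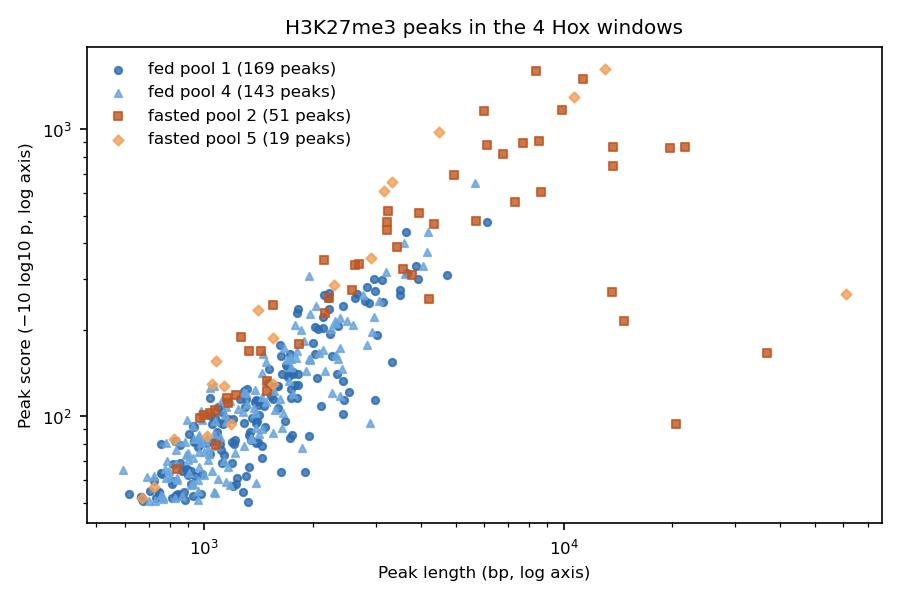
Score of each H3K27me3 peak touching a Hox window (vertical log axis, minus 10 times log10 p) against its length in bp (horizontal log axis), with 1 point for each peak and a colour and shape for each pool. No fed peak is longer than 6099 bp, whereas fasted peaks reach 36796 and 60923 bp.

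The overlap ratio of H3K27me3 between pools was higher for the fed pair than for the fasted pair in the windows, and lower over the genome. The bases in both lists divided by the bases in either were 0.378 for the fed pair in the windows and 0.153 over the genome. For the fasted pair the values were 0.140 in the windows and 0.456 over the genome. Fasted pools 2 and 5 shared no base at Hoxa or Hoxc, where pool 5 had no peak, and shared 0.288 at Hoxb and 0.138 at Hoxd. The ratio depends on cover and is held down where 2 lists differ in it. Fasted pools 2 and 5 covered 51.5% and 15.7% of the windows, and fed pools 1 and 4 covered 46.3% and 37.9%. No adjustment was made for cover, so the ratios do not compare sharing at equal cover.

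The 4 windows were then set against the genome in 264042 tiles of 10 kb, of which 58 lie in the windows, with a tile called when at least 1 base of a peak fell in it. H3K27me3 was called in 56 of the 58 tiles in fed pool 1 and 54 in fed pool 4, beside 1.89% and 1.11% of all tiles. In fasted pool 2 it was called in 36 and in fasted pool 5 in 11, beside 4.47% and 5.77% of all tiles. The count of Hox tiles touched thus fell from fed to fasted lists while the share of the genome rose. Cover did not fall with it in fasted pool 2, at 51.5% of the windows against 46.3% and 37.9% in fed pools 1 and 4. All tiles include stretches where reads cannot be placed and stretches with no gene, so these shares are a wide background.

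Tiles held by both fed pools and by no fasted pool were rare in the genome, and 19 of 28 were Hox tiles. Both fed lists called 52 of the 58 Hox tiles, beside 0.701% of all tiles. Of the 52, neither fasted list called 19, and in the whole genome only 28 tiles (0.0106%) had this pattern, so 9 lay outside the windows. The 19 were 8 at Hoxa, 6 at Hoxb, 2 at Hoxc and 3 at Hoxd. All 4 lists called 4 Hox tiles, beside 0.664% of all tiles. The opposite pattern, both fasted lists and no fed list, was found in 0 Hox tiles, beside 1.92% of all tiles. Outside the windows, 1750 of 1799 tiles with both fed lists (97.3%) were also in both fasted lists, and in the windows 4 of 52 (7.69%) were. These counts rested on which peaks and libraries were used. With equal numbers of top-scoring peaks 28 of 74 such tiles were Hox tiles, and without fasted pool 5 it was 22 of 51. Without fasted pool 2 the tiles with the fed pattern numbered 45 in the windows, and 29 outside them. Without fed pool 1 or fed pool 4 the windows still had 19, whereas the genome had 206 and 498 in place of 28.

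The missing fasted calls formed long stretches between called peaks, some of high and some of low score. Stretches of at least 20 kb with no fasted H3K27me3 peak that held at least 5 peaks of each fed list were sought over the genome. Fasted pool 2 had 7 such stretches, of which 5 lay at Hox clusters, and fasted pool 5 had 6, of which 4 did. The longest of fasted pool 5 spanned the whole Hoxc window, 151830 bp at chr15:102731549-102883378, with 47 and 43 peaks of fed pools 1 and 4 inside it. At Hoxa it was 142587 bp at chr6:52095684-52238270 with 45 and 38 fed peaks, again over the whole window, between peaks with scores of 276.71 and 1901.83. At Hoxd it was 127822 bp, between peaks with scores of 54.14 and 1625.09. At Hoxb it was 110701 bp, at chr11:96109870-96220570, between scores of 652.3 and 83.06. The longest stretch of this kind elsewhere in fasted pool 5 was 46012 bp.

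Fasted pool 2 had shorter stretches, which did not span a window. The longest, 88977 bp at chr6:52121978-52210954 in Hoxa, held 31 and 27 peaks of the fed pools, which covered 62.9% and 53.0% of it. At Hoxb it had 2 stretches, of 62458 and 48290 bp, at Hoxd 1 of 38609 bp and at Hoxc 1 of 35010 bp. The longest elsewhere was 43657 bp. The Hoxa stretch lay between peaks scoring 94.14 and 1495.67, and the longer Hoxb stretch between peaks scoring 1593.6 and 132.25. Peak numbers in the names ran from 1 to the list's length in all 4 H3K27me3 lists, with none skipped. How the calling of peaks, the inputs or the read depth bear on these stretches was not tested, and the read signal itself was not analysed here.

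**Figure D4:**
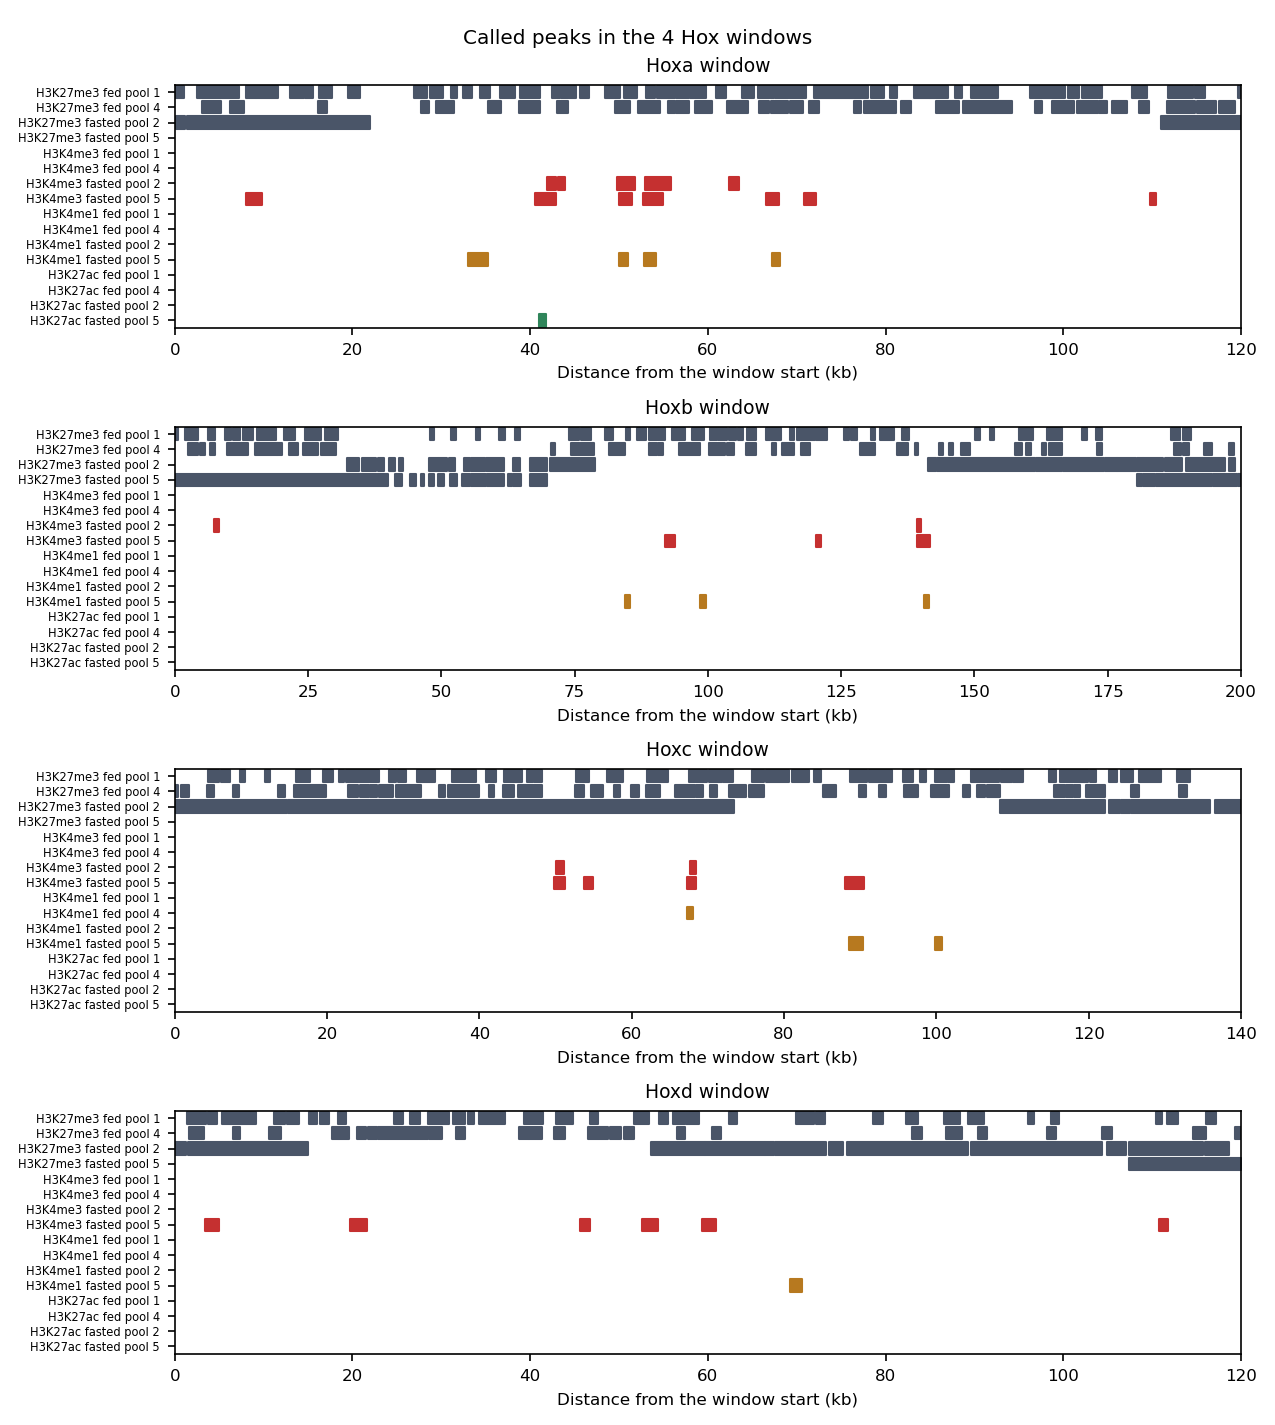
Called peaks of 4 marks in each pool (rows) against the distance from the window start in kb, with 1 bar for each peak, clipped at the window edges. H3K27me3 fills much of the fed rows in many short bars, H3K4me3 is drawn only in fasted rows and H3K27ac has a single bar, at Hoxa in fasted pool 5.

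H3K4me3, the promoter mark, was called at Hox clusters only in the fasted lists. Fed pools 1 and 4 had 0 peaks in the 4 windows, fasted pool 2 had 9 and fasted pool 5 had 20, and cover was 2.03% and 5.52% in these. Every fasted value lay above every fed value, with a mean of 3.77% ± 2.47 (SD, n = 2) against 0 (exact permutation p = 0.33, adjusted over 8 marks 1.0). Within numbers 10 and 11 the difference was 2.03 and 5.52. The fed H3K4me3 lists were short all over the genome, and when all 4 lists were cut to the 295 highest-scoring peaks no Hox peak was left in any. In tiles, H3K4me3 touched 8 of 58 in fasted pool 2 and 23 in fasted pool 5, beside 5.88% and 7.66% of all tiles.

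By cluster, H3K4me3 was widest at Hoxa. It covered 6.73% and 9.54% of the Hoxa window in fasted pools 2 and 5, and 0.855% and 2.64% at Hoxb. At Hoxc it covered 1.40% and 4.59%, and at Hoxd 0% and 7.41%. Merged over both lists there were 23 places, 9 at Hoxa, 4 at Hoxb, 4 at Hoxc and 6 at Hoxd, of which 6 were in both fasted lists. Those 6 were 3 at Hoxa, 1 at Hoxb and 2 at Hoxc.

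The places in both lists at Hoxa lay close together in the middle of the cluster. The widest was 3166 bp at chr6:52152696-52155861, with scores of 156.87 and 373.81 in fasted pools 2 and 5. The next, at chr6:52149787-52151813, scored 145.41 and 163.14, and that at chr6:52140510-52142935 scored 104.09 and 499.89, the highest score of a Hox H3K4me3 peak. Even the peak scoring 499.89 stood at percentile 48.8 of its list, and every Hox H3K4me3 peak scored below the median of its list. At all 3, both fed pools had H3K27me3 and neither fasted pool did. At Hoxb the shared place was chr11:96179273-96181659, with scores of 55.66 and 235.96. At Hoxc the shared places were chr15:102789862-102791269, with 80.2 and 114.8, and chr15:102807242-102808503, with 59.53 and 146.2.

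Most places with H3K4me3 in fasted crypts had H3K27me3 in fed crypts, as did most of the windows. Of the 23 places, 21 overlapped H3K27me3 of at least 1 fed list, which covered 61.1% of the windows, and 10 overlapped both, which shared 23.1%. H3K27me3 of at least 1 fasted list, of the same or the other pool, overlapped 10 of the 23. The 2 fasted lists joined covered at least the 51.5% of the windows that fasted pool 2 covered. A place, being a stretch and not 1 base, touches a peak more often than its cover gives, so nothing particular to these places is read from the counts. Within a pool, 2 of 9 H3K4me3 peaks of fasted pool 2 and 1 of 20 of fasted pool 5 overlapped H3K27me3, which covered 51.5% and 15.7% of the windows in these pools. The length with both marks was 1.96 kb in fasted pool 2, all at Hoxc, and 1.11 kb in fasted pool 5, all at Hoxd. The fed pools had no H3K4me3 peak there that could overlap, so this length was not compared between conditions. Lists of different pools come from different animals, so an overlap between them does not show both marks on 1 allele or in 1 cell.

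H3K4me1, a mark of enhancers and promoter edges, was called at the clusters in 2 lists. Fed pool 4 had 1 peak, of 877 bp, at chr15:102807204-102808080 in Hoxc. Fasted pool 5 had 10, from 940 to 2241 bp, which covered 4.61% of Hoxa, 1.59% of Hoxb, 1.99% of Hoxc and 1.08% of Hoxd. Fed pool 1 and fasted pool 2 had none, so the fed and fasted values overlapped. The peak of fed pool 4 lay on an H3K4me3 place shared by both fasted pools. The longest H3K4me1 peak of fasted pool 5 was at chr6:52133003-52135243 in Hoxa, with a score of 182.16. In tiles, fasted pool 5 touched 12 of 58 (20.7%), beside 13.0% of all tiles, and the 4 lists together 13 (22.4%), beside 14.4%. By cover, H3K4me1 of fasted pool 5 stood below the genome, at 0.598 times its share.

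Acetyl and β-hydroxybutyryl marks were called at 1 place of the 4 clusters. H3K27ac had 1 peak in the 4 windows over the 4 lists, 729 bp at chr6:52141030-52141758 in fasted pool 5, with a score of 83.39 (percentile 20.8 of its list). It lay inside the H3K4me3 place of Hoxa with the highest score. H3K9bhb and H4K12bhb had no peak in any window in any pool, and neither had H3K79me2, a mark of transcribed gene bodies, or H3K9me3, a mark of heterochromatin. Over all 8 marks, 23 of 32 lists had no peak in the windows.

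The lists without Hox peaks were long in the case of the acyl marks. H3K27ac lists ran from 15504 to 37974 peaks, H3K9bhb lists from 13923 to 38934 and H4K12bhb lists from 16560 to 26252. In tiles of any of the 4 lists, H3K27ac touched 1 of 58 beside 12.9% of all tiles, H3K9bhb 0 beside 10.6% and H4K12bhb 0 beside 8.72%. H3K79me2 touched 0 beside 8.73% and H3K9me3 0 beside 1.67%. By the same count H3K27me3 touched 58 of 58 beside 6.82%, and H3K4me3 24 beside 7.98%. H3K4me1 touched 13 (22.4%) beside 14.4%, though by cover it stood below the genome's share in every pool. In this tile count the clusters thus stood above the genome's share for H3K27me3, H3K4me3 and H3K4me1. They stood below it for the acyl marks and H3K79me2. For H3K4me3 the excess came from the fasted lists alone, as the fed lists touched 0 Hox tiles beside 1.38% and 0.126% of all tiles. For H3K4me1 it came from fasted pool 5 alone, at 20.7% of Hox tiles beside 13.0%. Fed pool 4 touched 1.72% beside 10.4%, fed pool 1 touched 0 beside 0.126% and fasted pool 2 touched 0 beside 5.25%.

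**Figure D5:**
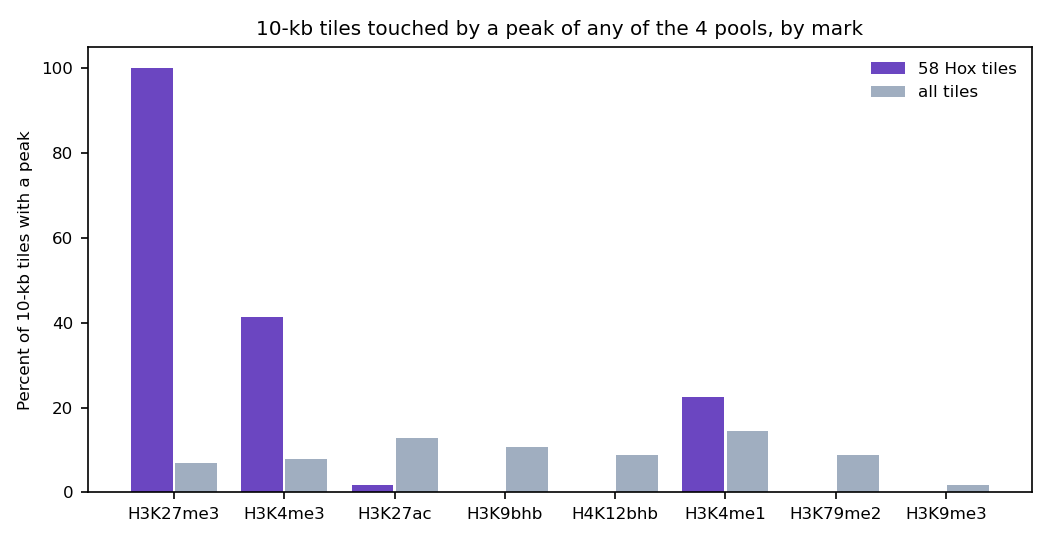
Percent of 10-kb tiles with a peak in any of the 4 lists of a mark (vertical axis), for the 58 Hox tiles and for all tiles, with 1 pair of bars for each mark. All Hox tiles carry H3K27me3, and none carries H3K9bhb, H4K12bhb, H3K79me2 or H3K9me3.

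The contrast of H3K27me3 with H3K27ac, marks of the same lysine that exclude each other on 1 histone tail, set 4 pools against 4. H3K27me3 covered 37.9% ± 15.8 (SD, n = 4) of the windows and H3K27ac 0.0314% ± 0.0628 (SD, n = 4), a difference of 37.8 points (exact permutation p = 0.0286, two-sided). That is the smallest p the design allows. H3K27me3 was the higher mark in 4 of 4 pools, and with the marks of a pool taken as a pair the exact permutation p was 0.125, the smallest that 4 pairs allow. No base of the windows carried both marks in 1 pool, but none could. The only H3K27ac peak lay at Hoxa in fasted pool 5, which had no H3K27me3 peak in that window. The lists of the 2 antibodies were called separately and their sensitivities are unknown, so the test compares called lengths.

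Outside the windows, the nearest H3K27ac and H3K9bhb peaks were closest at Hoxb, and the nearest H4K12bhb peak was closest at Hoxd in fasted pool 5 and at Hoxb in the other pools. Below the Hoxb13 end, an H3K27ac peak stood 30.3 to 42.0 kb from the window in the 4 pools. The nearest H3K9bhb peak stood 34.6 to 103 kb away and the nearest H4K12bhb peak 102 to 103 kb. At Hoxa the nearest H3K27ac peak outside the window was 136 to 409 kb away, at Hoxc 113 to 228 kb and at Hoxd 53.3 to 740 kb. For H3K9bhb these distances were 206 to 330 kb, 165 to 229 kb and 695 to 740 kb. For H4K12bhb they were 206 to 406 kb, 165 to 223 kb and 53.6 to 740 kb. As no window held an H3K9bhb or H4K12bhb peak in any pool, a free stretch beyond both edges follows from that. The distances were not compared with those elsewhere in the genome.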

How the data were processed

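The 32 deposited lists hold peaks with a score, the authors' value from their peak caller, minus 10 times the log10 of p. MACS 1 without model building was run against the input of the same pool, per the file names. Bowtie 1.1.2, SAMtools 1.9, deepTools 1.5.11, FastQC and mm9 are listed in the submitters' processing notes. The 4 input samples entered no comparison, and read depth is not given in the sources used here.

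Peaks were clipped to the windows and merged within a list, and covered lengths were taken as a percent with Python 3.11.15, numpy 2.4.6 and pandas 2.3.3. They equalled those of bedtools 2.31.1 in 128 of 128 checks. Pools are the replicates. An exact permutation test over pools, two-sided, compared conditions and marks, with Benjamini-Hochberg adjustment over 8 marks. The genome is the span of 2640 Mb over 21 chromosomes in the lists. The regions named are the longest merged H3K27me3 region, the longest stretch without it and the longest H3K27ac, H3K9bhb and H4K12bhb regions of each window. Fed-fasted stretches, tiles and the H3K4me3 places were chosen after their values were seen. The windows, members and lists were chosen with earlier results of these data known. Alternatives were other window edges, equal numbers of top peaks, scores of at least 100, whole peaks, minimum overlaps, and each library left out. Positions are counted from 1.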

Additional observations from a re-analysis of the deposited data

Results flagged for a closer look

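The fasted-minus-fed difference in H3K27me3 cover had opposite signs in 2 clusters with no overlap between pools in either. At Hoxb it was 6.67 percentage points, higher in both fasted pools than in both fed pools, and at Hoxa it was -43.0, lower in both fasted pools. At Hoxc and Hoxd the fed and fasted values overlapped. The exact permutation p was 0.33 at Hoxa and at Hoxb, the smallest that 2 pools against 2 can give. This test thus cannot tell either separation from chance. The separation at Hoxb also depended on the long peak of fasted pool 5 that crossed the lower window edge. The difference between the clusters was not tested.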

How the results depend on the processing

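The difference between fasted and fed H3K27me3 cover, -8.51 points, changed sign to 5.16 in the pools of file-name number 10 and to 3.53 with scores of 100 or more. It ran from -26.4 to 9.36 with 1 library left out. The H3K4me3 difference of 3.77 points fell to 0 with equal numbers of top-scoring peaks, which leave 295 in each list, and was 2.03 to 5.52 with 1 library left out. The H3K27ac difference of 0.0628 was 0 in number 10, with scores of 100 or more and with equal numbers, and 0 to 0.126 with 1 library left out. The H3K4me1 difference of 1.03 was 0 in number 10 and with equal numbers, and -0.0756 to 2.13 with 1 library left out. The length with both H3K27me3 and H3K4me3 was 0 kb with scores of 100 or more and with equal numbers.

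With the pool as a replicate block, the H3K27me3 minus H3K27ac difference stayed 37.8 points at an exact permutation p of 0.125. With 1 library left out it was 33.3 to 45.2 points, and the exact permutation p was 0.0571 without any 1 of the H3K27ac lists. Pool numbers pair the marks because each names 1 pool. Fed and fasted pools have different pool numbers and share only the file-name numbers 10 and 11, within which differences are given. Tiles with H3K27me3 in both fed lists and in neither fasted list, 19 of 58, were 39 of 116 with 5-kb tiles, 28 with equal numbers (28 of 74 in the genome, against 19 of 28) and 19 to 45 with 1 library left out. These tile settings were chosen after seeing the data. With windows widened by 20 kb the H3K27me3 difference was -0.254 points. All other recomputed values kept their direction, and tests of 2 pools against 2 cannot pass a threshold of 0.05. The causes of these changes were not tested. With unknown depth, a missing peak gives no upper limit for a mark.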
